A study of Mus musculus with 6 samples.

Results

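The genes described here are 5 of the chemokine system, the ligand genes Ccl2, Cxcl12 and Cx3cl1 and the receptor genes Cxcr4 and Ackr3, taken by symbol from a table of 15330 genes. All 5 were found. They were selected on values of these same libraries, since the difference of Ccl2 between the groups was known when the set was put together. Every difference of these 5 genes between the groups is therefore a description, with no test.

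Chemokines are small secreted or membrane-held proteins that steer moving cells through receptors of the seven-pass class. The families are named after the spacing of the first pair of cysteines in the mature protein. CCL2 draws monocytes that carry the receptor CCR2. CXCL12 guides progenitor and endothelial cells, and in the developing heart it is known for its part in the growth of the coronary vessels. It has a pair of receptors. CXCR4 signals through inhibitory G proteins, while ACKR3, an atypical receptor, recruits arrestin, takes CXCL12 out of the surroundings and is known for a role in semilunar valve formation. CX3CL1, or fractalkine, stands on the cell surface on a mucin stalk until proteases release it.

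The libraries came from dissected mouse hearts at embryonic day 9.5, in 2 groups of 3. The wild-type hearts carried no engineered allele named in the labels. The H2-URI d/d hearts, called deletion hearts below, were homozygous for an allele made with CRISPR-Cas9 that lacks 373 kb upstream of Hand2, which encodes a basic helix-loop-helix factor of heart and limb. No driver restricted to a tissue is named, so a change in the heart and one brought about from elsewhere in the embryo cannot be told apart. Replicates 1 and 2 of each group were marked F, read here as female, and replicate 3 M, read as male, and all 6 carried batch number 1. Whether a library held 1 heart or several is not stated, so p-values measure the spread between libraries, which may be technical.

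The libraries held 25583210 to 32043595 reads over the rows of the table. The cardiomyocyte list, 12 genes such as Tnnt2 and Myh6, was measured in full and summed to at least 876484 normalized counts in each library, where a normalized count is a read count divided by a size factor of the library. Hand2, which checks the labels, stood at 3911, 3789 and 4407 normalized counts in wild-type and at 1025, 1158 and 1163 in deletion hearts, replicates 1 to 3 in that order. Columns were matched to libraries by the code in the sample titles. The files of 4 libraries are recorded under the other group, and only replicate 3 of each group has code and record alike. By the codes, Hand2 was lower in every deletion library than in any wild-type one. The records would put Hand2 values of 3911, 3789 and 1163 in the deletion group and 1025, 1158 and 4407 in the wild-type group. Every difference below rests on the codes, and those of Ccl2, Cxcl12, Cxcr4, Ackr3 and Hand2 change direction if the records are followed.

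The names of the ligands can be read from their coding sequences. The stretches below show the codons of the first cysteine pair, in capitals, from GENCODE M21 transcripts on GRCm38, each 48 bases long and counted from the first base of the start codon. They are shown because the spacing sets the families apart.
Ccl2, bases 85 to 132: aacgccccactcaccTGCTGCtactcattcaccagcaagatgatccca
Cxcl12, bases 73 to 120: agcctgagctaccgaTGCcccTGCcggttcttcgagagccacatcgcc
Cx3cl1, bases 79 to 126: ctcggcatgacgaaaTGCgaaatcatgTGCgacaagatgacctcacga
The codons adjoin in Ccl2, where 0 codons lie between them, and 1 codon lies between them in Cxcl12 and 3 in Cx3cl1. The reading frame holds 148 codons in Ccl2, 119 in the longest form of Cxcl12 and 395 in Cx3cl1, whose frame also spells the mucin stalk and the membrane anchor.

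Ccl2 was the gene of the set that differed most. Wild-type replicates 1 to 3 had 114, 70.3 and 118 normalized counts against 4.22, 0.928 and 10.8 in deletion replicates 1 to 3. Every wild-type library stood above every deletion library, and the lowest wild-type value was several times the highest deletion value. The means were 101 ± 26.4 and 5.32 ± 5.03 normalized counts (SD, n = 3), so the deletion mean was 5.28% of the wild-type mean. The log2 fold change on the scale of log2(normalized count + 1), deletion minus wild-type, was −4.33 (SE 0.57). No gene among the 15330 had a larger fold change in either direction on this scale.

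The reads behind the Ccl2 values were few in the deletion hearts. The wild-type libraries held 100, 79 and 129 Ccl2 reads and the deletion libraries 4, 1 and 10. Over the group this made 308 reads against 15. Set against the summed size factors of each group, which allow for the depth of the libraries, this was a 19.6-fold difference with a 95% exact counting interval of 11.7 to 35.4. That interval covers counting error only and not the spread between libraries. The single read of deletion replicate 2 has an exact Poisson interval of 0.0253 to 5.57 reads. The mean of the deletion hearts lay below 15.4, the lowest mean over all 6 libraries that any row of the table had. Ccl2 thus had a row through its level in the wild-type hearts. In RNA of whole hearts, fewer cells that make a transcript and less of it per cell cannot be told apart.

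Cxcl12, the most abundant of the set, differed between the groups by less than the spread between libraries. Its normalized counts were 1967, 2205 and 1872 in wild-type hearts against 1726, 2045 and 1973 with the deletion. The ranges overlapped, with the highest value in a wild-type and the lowest in a deletion library. The means were 2015 ± 172 and 1915 ± 168 (SD, n = 3), with a log2 fold change of −0.07 and a 95% interval from −0.27 to 0.12 in limma. The values leave room for a fall or a rise within those bounds.

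Cx3cl1 also overlapped between the groups. Wild-type hearts had 156, 138 and 123 normalized counts, deletion hearts 116, 162 and 166. The lowest and the highest value of the 6 both came from deletion hearts. The means were 139 ± 16.5 and 148 ± 27.7 (SD, n = 3), and the log2 fold change was 0.08 with a 95% interval from −0.31 to 0.47 in limma. The sign of this small difference turned negative without wild-type replicate 3 or deletion replicate 3, at log2 fold changes of −0.0030 and −0.011.

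**Figure D1:**
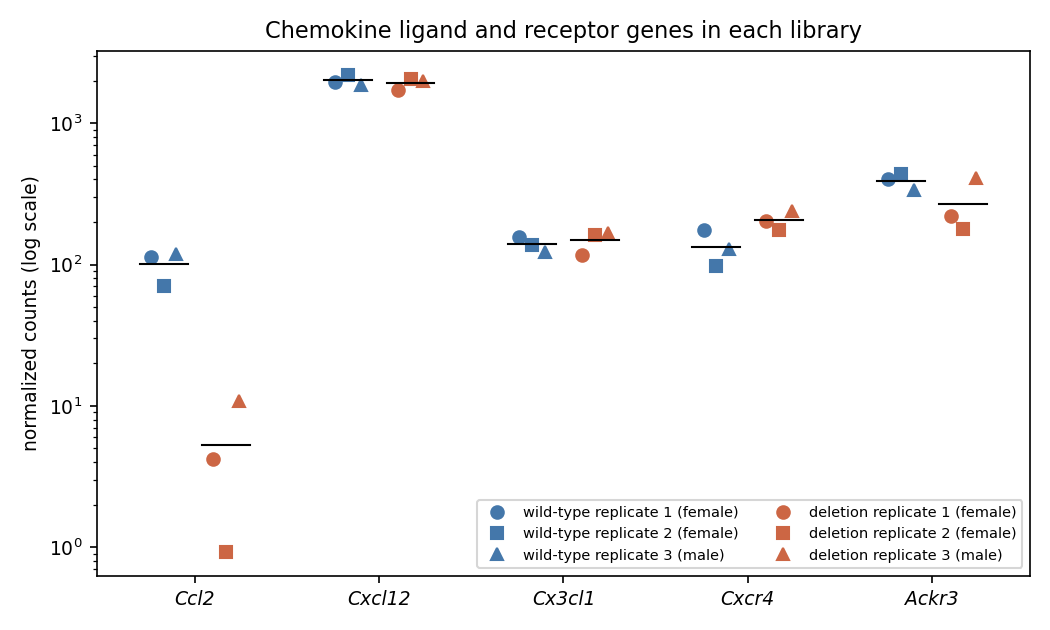
Normalized counts of Ccl2, Cxcl12, Cx3cl1, Cxcr4 and Ackr3 in each of the 6 libraries on a log scale, with wild-type in blue, deletion in orange, a marker shape for each replicate number and a black line at the mean of 3. The 3 deletion values of Ccl2, from 0.928 to 10.8, all lie below the wild-type values, while the groups overlap in each of the other genes.

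The mean of Cxcr4 was higher in the deletion than in the wild-type hearts. The gene was measured at 176, 97.0 and 129 normalized counts in wild-type and at 204, 175 and 238 in deletion hearts. The groups met at the edge, as wild-type replicate 1 lay just above deletion replicate 2 and below the other deletion libraries. The means were 134 ± 39.7 and 205 ± 31.5 (SD, n = 3), and the log2 fold change was 0.64 (SE 0.21). Without wild-type replicate 1 it was 0.86.

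Ackr3 was split within the deletion group. Normalized counts were 405, 437 and 336 without the deletion and 220, 178 and 406 with it. Deletion replicates 1 and 2, marked F, lay below every wild-type library, and deletion replicate 3, marked M, lay among the wild-type values. The means were 393 ± 51.6 and 268 ± 121 (SD, n = 3), with a log2 fold change of −0.63 (SE 0.26). Without deletion replicate 3 it was −0.98.

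By sex, the log2 fold change of Ackr3 was −1.08 over 4 female libraries and 0.27 between 2 male ones. These were set apart after the values were seen. Each group had 1 male library, so sex and that library cannot be told apart. Deletion replicate 3 was also the library richest in primitive erythroid transcripts, whose 10 list genes summed to 460136 normalized counts there, against 86206 and 219200 in deletion replicates 1 and 2 and 121108 to 354382 in the wild-type libraries. The part of these red cell transcripts in the level of Ackr3 was not tested.

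Genes with an adjusted p under 0.05 in the limma fit over all genes are termed called. Of the 5 genes, 1 was called, Ccl2, lower in the deletion hearts. The fit called 1.5% of all genes lower, 1.55% higher and 3.05% in either direction. An unadjusted p under 0.05 was held by 3281 of the 15330 genes, the background for such counts in the lists below. The groups did not overlap for 1 of the 5, again Ccl2, beside 27.4% of all genes. Since the set was chosen on this contrast, nothing is read from these shares. With each of the 6 libraries left out in turn, the log2 fold change of Ccl2 ran from −4.96 to −3.66. The count of 1 was 2 without wild-type replicate 1, through Cxcr4, and without deletion replicate 3, through Ackr3.

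**Figure D2:**
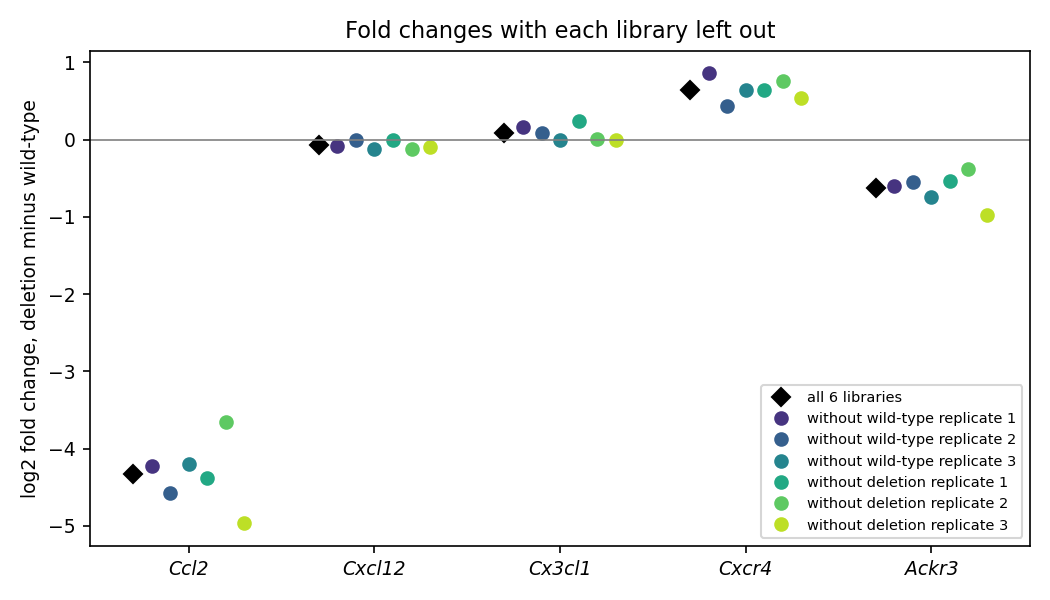
Log2 fold change of each gene, deletion minus wild-type, with all 6 libraries (diamond) and with each library left out (circles). Ccl2 lies between −4.96 and −3.66, Cxcr4 reaches 0.86 without wild-type replicate 1, and Ackr3 reaches −0.98 without deletion replicate 3.

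Because CXCR4 and ACKR3 share a ligand, their transcripts were also compared within each library, a ratio chosen after the values were seen. It does not depend on how the libraries were scaled. Counts were divided by the length of the longest protein-coding transcript in GENCODE M21, 1805 bases for Cxcr4 and 3065 for Ackr3. Per kilobase, Ackr3 stood at 1.36, 2.65 and 1.53 times Cxcr4 in wild-type replicates 1 to 3 and at 0.635, 0.601 and 1.01 times Cxcr4 in deletion replicates 1 to 3. Each wild-type library held more Ackr3 than Cxcr4 on this scale, and deletion replicates 1 and 2 held less. The ranges of the groups did not overlap. The ratio joins the lower mean of Ackr3 and the higher mean of Cxcr4 given above, so it is no separate observation. Deletion replicate 3 lay nearest to the wild-type libraries, with the receptors about level. The mean ratio was 1.85 ± 0.703 without and 0.748 ± 0.225 with the deletion (SD, n = 3), and the difference of the mean log2 ratios was −1.28. With the median length of the protein-coding transcripts in place of the longest, the ratios ran from 1.80 to 3.52 and from 0.797 to 1.33.

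**Figure D3:**
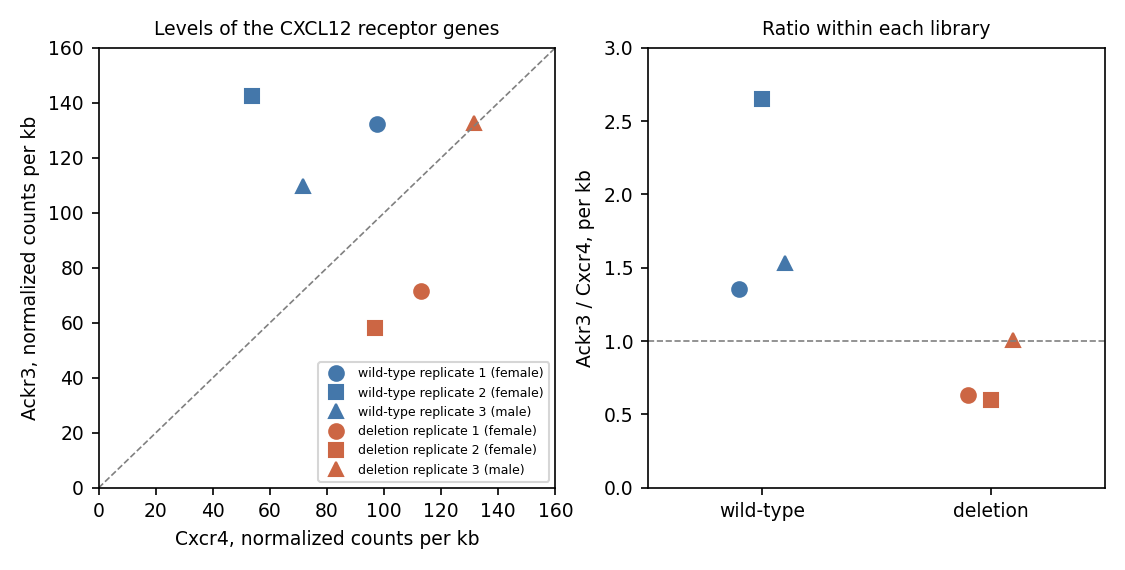
Left, Ackr3 against Cxcr4 in normalized counts per kilobase of transcript for each library, with a dashed line where they are equal. Right, their ratio in each library. The 3 wild-type libraries lie above the line with ratios from 1.36 to 2.65, and the deletion libraries lie at 0.601, 0.635 and 1.01.

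The order of the 5 genes by level was set on the same scale of normalized counts per kilobase. In wild-type hearts Cxcl12 led at 358 ± 30.6 (SD, n = 3). Ackr3 at 128 ± 16.8 and Ccl2 at 124 ± 32.4 followed, and Cxcr4 stood at 74.2 ± 22.0. Neighbours among these 3 overlapped between libraries. Cx3cl1 was lowest at 41.8 ± 4.96, below every value of Cxcr4. In deletion hearts Cxcl12 again led at 340 ± 29.8 (SD, n = 3), followed by Cxcr4 at 114 ± 17.5 and Ackr3 at 87.4 ± 39.6, which overlapped. Cx3cl1 followed at 44.6 ± 8.36, and Ccl2 came last at 6.54 ± 6.18, below every value of Cx3cl1. The order depended on the length used. With the median length of a gene's protein-coding transcripts, Cx3cl1, at 470 bases in place of 3315, stood second in both groups. In wild-type hearts Ackr3, at 226 ± 29.8, then no longer overlapped with Ccl2 at 124 ± 32.4 (SD, n = 3). In deletion hearts the receptors changed places, with Ackr3 at 154 ± 70.0 and Cxcr4 at 152 ± 23.3 (SD, n = 3), and still overlapped.

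Promoter windows were matched in RefSeq for 4 of the 5 genes, not for Ccl2. The 250 bases before the start of Cxcr4 (chr1:128592300-128592549, minus strand) and of Ackr3 (chr1:90203730-90203979, plus strand), on GRCm38.p6, are shown because these are the receptor genes compared above. Capitals mark matches on either strand to the E-box CANNTG, the kind of site that Hand2 and its partners bind, and to the GC box GGGCGG.
Cxcr4: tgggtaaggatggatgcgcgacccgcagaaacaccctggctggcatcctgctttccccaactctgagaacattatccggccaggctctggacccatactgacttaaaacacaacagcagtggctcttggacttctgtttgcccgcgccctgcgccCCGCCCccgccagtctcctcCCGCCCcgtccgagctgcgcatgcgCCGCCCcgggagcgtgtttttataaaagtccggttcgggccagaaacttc
Ackr3: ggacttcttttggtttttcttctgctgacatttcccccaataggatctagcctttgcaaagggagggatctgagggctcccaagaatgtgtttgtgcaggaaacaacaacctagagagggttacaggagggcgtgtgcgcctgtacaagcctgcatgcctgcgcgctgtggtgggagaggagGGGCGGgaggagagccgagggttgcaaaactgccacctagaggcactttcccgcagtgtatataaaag
The window of Cxcr4 held 3 GC boxes and 0 E-boxes, and that of Ackr3 held 1 GC box and 0 E-boxes. Among 32851 windows of this length, 32.7% held a GC box and 66.2% an E-box. The window of Cxcl12 held 5 GC boxes, of which a pair overlapped, and 0 E-boxes, and that of Cx3cl1 held 1 of each. The 6 bases CATCTG, a form of the E-box, were in none of the 4 windows and in 14.4% of all. These matches describe the letters of the windows only.

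None of the 5 genes lies within 500 kb of another. Within 500 kb of Ccl2 the RefSeq annotation lists 5 other chemokine ligand genes, Ccl7, Ccl11, Ccl12, Ccl8 and Ccl1, which were not analysed here. Near Cx3cl1 it lists Ccl22, not analysed here, and Ccl17. Ccl17, a ligand of the receptor CCR4, averaged 23.0 ± 1.96 normalized counts without and 16.2 ± 0.974 with the deletion (SD, n = 3). Its groups did not overlap, and limma gave a log2 fold change of −0.48 with an adjusted p of 0.350. Over the windows of 500 kb on either side of the 5 genes, 27 other genes were measured, of which 1 fell and 0 rose. That is near the 3.05% of all genes called in either direction. The gene that fell was Dok4, named after its values were seen, an adaptor protein of tyrosine kinase signalling near Cx3cl1 (log2 fold change −0.76, adjusted p = 0.00275, limma). The levels of these neighbours were not chosen with the set, and their shared position is a description.

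The other genes of the chemokine system were taken from lists of the family. Of 35 other ligands, 6 were measured, and limma called 0, beside 1 at an unadjusted p under 0.05, 0 in edgeR and 0 in DESeq2. That one was Ccl25, a ligand of the thymus and gut, whose mean was 193 ± 15.5 normalized counts without and 241 ± 14.4 with the deletion (SD, n = 3), a log2 fold change of 0.32 at an adjusted p of 0.159 in limma. The platelet chemokine gene Pf4 held 126 ± 29.1 and 130 ± 65.9 normalized counts. Ppbp, also of platelets, held 25.9 ± 16.9 and 29.1 ± 18.2. Ccl27a had a log2 fold change of −0.10 and Cxcl16, which like CX3CL1 is held on the membrane, −0.07. The median log2 fold change of the 6 was −0.08, beside −0.0073 over all genes. None of the measured ligands outside the set had a difference near that of Ccl2.

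Of 23 other chemokine receptors, 3 were measured, and 1 fell, beside 1.5% of all genes called lower. Gpr182, an atypical receptor of endothelium that binds chemokines without G protein signalling, was at 875, 761 and 912 normalized counts in wild-type hearts and at 674, 598 and 633 with the deletion. No deletion library reached a wild-type one. The means were 849 ± 79.1 and 635 ± 38.3 (SD, n = 3), and the log2 fold change of −0.42 (SE 0.09) had an adjusted p of 0.0433 in limma. The call was narrow: it was lost without any 1 library other than wild-type replicate 2, where the smaller fit also has less power, and with sex as a covariate. The other 2 receptors did not pass, Ackr1 with a log2 fold change of −0.21 and Ccrl2 with −0.29. The receptors of CCL2 and CX3CL1, Ccr2 and Cx3cr1, were not analysed here.

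**Figure D4:**
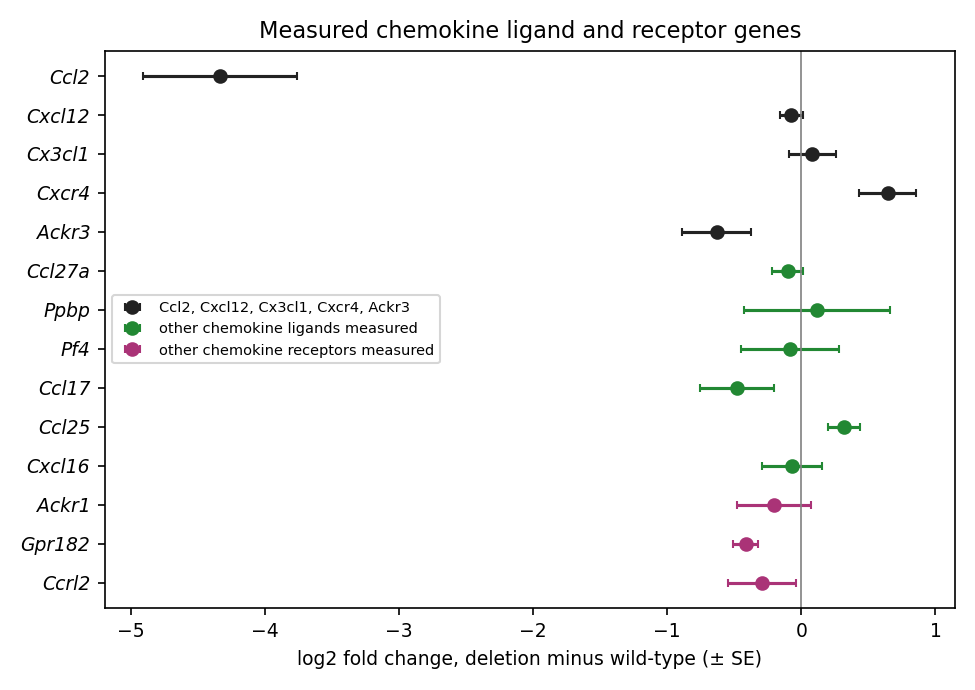
Log2 fold change, deletion minus wild-type, with its standard error for Ccl2, Cxcl12, Cx3cl1, Cxcr4 and Ackr3 (black), the 6 other chemokine ligands (green) and the 3 other receptors measured (purple). Ccl2 lies at −4.33, and each of the others lies between −0.63 and 0.64.

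Among 33 genes that pass on or shape these signals (G protein subunits, kinases and arrestins of the receptors, proteases and integrins), 30 were measured, 1 fell and 0 rose. That is near the 3.05% of all genes called in either direction. Ramp2, also on the endothelial list below, forms the adrenomedullin receptor with the product of Calcrl, and adrenomedullin is a peptide that ACKR3 can also take up. Ramp2 fell by 0.59 on the log2 scale (adjusted p = 0.0247, limma), with means of 1705 ± 268 and 1128 ± 69.4 normalized counts (SD, n = 3). Leaving out wild-type replicate 3, or a deletion library of any number, ended this call. For Adm, the adrenomedullin gene, limma gave a log2 fold change of 0.39 (adjusted p = 0.112), and for Calcrl 0.14. The arrestin genes Arrb1 and Arrb2 had 0.21 and −0.06. The genes of the sheddases of CX3CL1, Adam10 and Adam17, had −0.08 and −0.02, and Dpp4, whose product clips CXCL12, had 0.10. The median of the 30 was −0.02, with a range from −0.59 to 0.80. An unadjusted p under 0.05 in limma was held by 5 of them (Ramp2, Adm, Itgav, Itga4 and Grk3), beside 3281 of all 15330 genes. The integrin gene Itga4 had the largest rise, 0.80 (adjusted p = 0.220, limma), and its groups overlapped. Itgav had −0.28 and Grk3 0.21.

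NF-kB is the best known driver of Ccl2 transcription in inflammation. Of 23 of its factors and targets, 15 were measured and limma called 0, beside 2 at an unadjusted p under 0.05, 0 in edgeR and 0 in DESeq2. The 2 were Vcam1, an endothelial adhesion molecule, at 0.29 on the log2 scale (adjusted p = 0.187, limma), and Birc3, an inhibitor of apoptosis, with −0.39 (adjusted p = 0.233, limma). The median of the 15 was −0.02, with a range from −0.39 to 0.29.

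CXCL12 and its receptors are also genes of arterial and sprouting endothelium. Of 13 such genes 12 were measured, and limma called 0, beside 7 at an unadjusted p under 0.05, 0 in edgeR and 5 in DESeq2. Over all 15330 genes, 3281 had an unadjusted p under 0.05 in limma. The lowest p was that of Nid2, a basement membrane protein, at 0.28 on the log2 scale (adjusted p = 0.0527, limma). Dll4, the Notch ligand of tip cells, averaged 345 ± 90.3 and 568 ± 70.1 normalized counts (SD, n = 3), a log2 fold change of 0.75 that missed the threshold in limma (adjusted p = 0.0625). The values of 10 of the 12 were higher in the deletion hearts, beside 7424 of all 15330 genes. The median log2 fold change of the 12 was 0.24, and 5 were called without wild-type replicate 1 and 3 without wild-type replicate 2.

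Markers of cells that could carry these transcripts were set beside them. Of 21 monocyte and macrophage genes 6 were measured, and they summed to 848 to 1062 normalized counts in the wild-type and 864 to 940 in the deletion libraries. Mrc1, a scavenger receptor of macrophages that endothelium also makes, rose (log2 fold change 1.08, adjusted p = 0.00637, limma) and 0 of the others passed. On the log2 scale Laptm5, a lysosomal protein of leukocytes, stood at −0.50 (adjusted p = 0.109, limma) and Lyve1, a hyaluronan receptor of macrophages and endothelium, at −0.47 (adjusted p = 0.150, limma). Both were lower in every deletion library than in any wild-type library, and they are named after their values were seen. The groups did not overlap for 27.4% of all genes. Cd68 and Lyz2, of the same list, had log2 fold changes of 0.26 and −0.05, and their groups overlapped. Csf1r, which defines the lineage, held 45.0 ± 18.5 and 50.8 ± 2.87 normalized counts (SD, n = 3). The general leukocyte gene Ptprc and the macrophage genes Adgre1 and Spi1 were not analysed here. All 14 endothelial and endocardial genes were measured, summing to 30758 to 33606 in wild-type and 30724 to 32070 in deletion libraries. Of these genes 3 fell (Eng, Tek and Ramp2) and 1 rose (Kdr), beside 3.05% of all genes called in either direction. The sums of both lists overlapped between the groups and add up genes whose values differed in opposite directions. The part of these cells in the level of Ccl2 was not tested. Without deletion replicate 2 or 3 the call of Eng was lost, and those of Tek, Ramp2 and Kdr were lost without wild-type replicate 3 or any deletion library.

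In the other lists the counts were as follows, beside 1.5% of all genes called lower and 1.55% called higher. Of 12 cushion mesenchyme genes 4 fell (Col3a1, Postn, Msx1 and Twist1) and 0 rose. The sums were 58737 to 74039 normalized counts in wild-type and 62095 to 64275 in deletion libraries. Vcan alone, with a log2 fold change of −0.0028, made up 32347 to 40881 and 36170 to 38681 of these sums. The values of 10 of the 12 genes were lower in the deletion hearts, beside 7906 of all 15330 genes. The call of Col3a1, which encodes a fibrillar collagen, held without each library in turn. Those of Postn, Msx1 and Twist1 were each lost without deletion replicate 1 or 2, and without other single libraries, and 1 to 4 of the 12 were called with a library left out. Of 8 epicardial genes measured 1, Krt19, rose. The sum was 2814 to 3781 in wild-type and 4591 to 6170 in deletion libraries, which did not overlap. Krt19 alone made up 1255 to 1356 and 2322 to 2376 of these sums. Of the 8 genes, 3 were higher in every deletion library than in any wild-type one, beside 1978 of all 15330 genes. Upk3b had a log2 fold change of −0.12. Of 5 neural crest genes measured 1, Ets1, fell. The sum went from 3440 to 3899 in wild-type and from 2825 to 3214 in deletion libraries, also without overlap. Ets1 alone made up 2128 to 2317 and 1742 to 1866 of it. The call of Ets1 was lost without wild-type replicate 3 or a deletion library. No gene of the cardiomyocyte, foregut, erythroid or platelet lists was called in limma (4, 2, 0 and 2 at an unadjusted p under 0.05, 0 in edgeR for each, and 4, 0, 0 and 0 in DESeq2). Whether these other cells had a part in the levels of Ccl2, Cxcr4 or Ackr3 was not tested.

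Each gene of the set was compared with 11820 other genes by its profile, the log2 values of the 6 libraries taken relative to their own mean. Likeness was the root mean square difference between profiles, so a small value is a close match. For Ccl2 the nearest genes were Acap1 (0.919), Nt5e (0.973) and Clec4g (1.16), all lower in the deletion. These were the largest differences among the matches named. The SD of Ccl2 over the libraries was also the largest of the set, at 2.31 against 0.489 for Ackr3 and 0.424 for Cxcr4. The profile of Cxcr4 was matched by Spry1 (0.0847), a feedback inhibitor of FGF signalling, Sparcl1 (0.103) and Sema6a (0.152). Spry1 held 278, 165 and 212 normalized counts in wild-type and 294, 304 and 387 in deletion libraries, the same low wild-type replicate 2 and high deletion replicate 3 as Cxcr4. Plat, the tissue plasminogen activator gene, was nearest to Ackr3 (0.168), then Tshz3 (0.176) and Cryl1 (0.183). Plat held 581, 552 and 534 normalized counts in wild-type and 322, 308 and 504 in deletion libraries, so deletion replicate 3 stood apart from the other deletion libraries here as well. The nearest genes to Cxcl12 were Fam120b (0.0226), Impa2 (0.0233) and Anp32b (0.0327), and those to Cx3cl1 were Loxl3 (0.0534), Zfp703 (0.0574) and Slc25a53 (0.0626). With 6 libraries and so many genes, close matches say little, and they are given as a description.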

How the data were processed

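RNA was sequenced from 6 heart libraries, 3 per group, after stranded TruSeq mRNA preparation from 300 ng of total RNA, per the labels' protocols. The build was GRCm39, and STAR 2.7.9a, Subread 2.0.1 with featureCounts, DESeq2 1.30.1 and bcl2fastq 2.20 are listed in the submitters' processing notes. For the annotation, strand setting and gene filter, the answer is not given in the sources used. The values are the authors' normalized counts, a signal per gene equal to whole reads times a constant of each library, per the file headers and the values. All values were whole multiples of 1 read within 0.01, so reads were recovered.

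limma-trend (limma 3.58.1, R 4.3.3) was fitted to log2(normalized count + 1) of all 15330 genes with a mean of at least 10, which removed none. Two-sided p-values were adjusted over all genes by Benjamini-Hochberg, with 0.05 as threshold. The fit was tested on simulated data. edgeR 4.0.16 and DESeq2 1.42.0 were run on the recovered reads as alternatives. Members, lists and tests were chosen with earlier results of these data known. Named genes were Hand2, the members, the measured chemokine family, and up to 4 called genes per list or 2 with the smallest p. The 3 nearest profiles with a mean of at least 50 in the higher group were also named. Some further genes of the lists and some neighbours were named outside this rule. Cell type lists are mostly given as counts. The reference held, GENCODE M21 and RefSeq on GRCm38, is another build, so it served for names, neighbours, lengths and the printed sequences.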

Additional observations from a re-analysis of the deposited data

How the results depend on the processing

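The alternatives were 2 other pseudocounts, 2 filters, 2 scalings, 2 variance models, edgeR, DESeq2, sex as a covariate, a replicate block, removal of a length and GC trend, the recorded file assignment and each library left out. The log2 fold change of Ccl2, a description here as for the other 4 genes of the set, was −4.54 to −3.44 where all 6 libraries and the title codes were kept. Under the recorded assignment the log2 fold changes were 2.11 for Ccl2, 0.12 for Cxcl12, −0.059 for Cxcr4, 0.81 for Ackr3 and 0.57 for Hand2, and 0 genes were called, in the lists too (0 receptors, 0 partners, 0 cell type markers). Cx3cl1 turned to −0.020 once a trend with length and GC content was taken out.

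Leaving out each library gave −0.13 to −0.00064 for Cxcl12, 0.43 to 0.86 for Cxcr4, −0.98 to −0.39 for Ackr3 and −0.011 to 0.25 for Cx3cl1. Over all genes, 61 to 695 were then lower and 42 to 466 higher, against 230 and 237 with all 6. The lowest counts came without deletion replicate 2 and the highest without wild-type replicate 2. Called were 0 to 1 of the other receptors, 0 to 3 of the partners, 0 to 5 of the arterial genes and 3 to 18 of 81 cell type markers. Smaller fits have less power, and the cause of the rises was not tested.

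Without an intensity trend 73 genes were lower and 73 higher, with 0 receptors, 0 partners and 3 cell type markers called. DESeq2 called 600 lower and 539 higher, 5 arterial genes and 18 cell type markers. With sex as a covariate 0 receptors were called. With the length and GC trend taken out, 3 partners and 1 arterial gene were called, and 1 arterial gene with TMM scaling. The main fit did not pair libraries by number. Same-numbered libraries had correlations of −0.03, −0.12 and −0.14 in their deviations from the group means, and the other pairs ran from −0.16 to 0.25. With 3 libraries per group this is too little to settle whether the numbers pair them. With the replicate block 110 genes were lower and 96 higher, with 0 receptors, 0 partners and 7 cell type markers called. The few reads of Ccl2 in the deletion hearts, 1 to 10 per library, limit how closely its level there is known.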
